A study of Mus musculus with 2 samples.

Results

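Collagens that do not build fibrils hold a cell to its matrix, decorate fibrils or form networks, and 10 genes of these families were followed across the cells of the mouse leptomeninges. The members were Col13a1, Col23a1 and Col25a1, which encode collagens anchored in the cell membrane, Col12a1, Col14a1 and Col16a1, which encode fibril-associated collagens with interrupted triple helices (FACIT collagens), and Col8a1, Col6a1, Col6a2 and Col6a3, which encode network collagens. Each member was the row of the deposited count matrices that carried its symbol, which gave 10 of 32287 features, all with UMIs in both libraries. The list was drawn up with earlier results of these data known, so the members' levels are given as a description, with no test. Single-cell RNA was measured by droplet sequencing in 2 libraries, R1 and R2, which form 1 group: leptomeninges peeled by hand from the cerebral hemispheres of Pdgfra-H2BGFP mice, a reporter strain that carries a nuclear green fluorescent protein at the Pdgfra locus, males and females, 3 months old, digested to single cells. No treatment or mutation separates the libraries, and the labels do not say whether they came from separate animals, so differences between R1 and R2 may be technical.

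After filtering, 2906 cells of R1 and 2957 of R2 were kept, with 7410147 and 6030787 UMIs and a median of 1632 and 1231 UMIs per cell. The libraries shared 93 cell barcodes, and 78 of the pairs had like profiles (correlation of log counts 0.612 to 0.878, against at most 0.604 in 300 other endothelial pairs), so barcodes present in both were left out of the results below. Of the like pairs, 66 were endothelial-like in both libraries. The reporter GFP had no UMI in any cell. Clustering without the members or any listed collagen gene gave 19 classes, of which the 16 with at least 20 cells in each library are described, named from marker genes where the markers allowed it. The dural border-like class, the cell layer that faces the dura, had 474 cells in R1 and 261 in R2, and its summed markers reached 5556 and 5839 UMIs per 1000000 UMIs of the class (CPM), against 189 to 553 CPM in the inner arachnoid and pial classes. The other fibroblast-like layers were inner arachnoid (71 and 75 cells), pial and perivascular (179 and 111 cells) and the tight-junctioned arachnoid barrier-like class (39 and 27 cells, with 4 of 6 markers detected in R1). Of the 16, 4 stayed unnamed and are called by number. F05 (84 and 22 cells) was led by Msln and Prg4 and carried dural border markers at 3281 and 3410 CPM and arachnoid barrier markers at 1723 and 1633 CPM. F02 (172 and 360 cells) had B-cell transcripts among its leading genes, with inner arachnoid markers at 1734 and 1649 CPM. C10 (358 and 672 cells) was led by Mpo and Elane and had fibroblast markers at 5809 and 6175 CPM and dural border markers at 2565 and 2979 CPM. C04 (249 and 84 cells) carried markers of neurons (10636 and 6005 CPM), astrocytes (6790 and 9577 CPM) and oligodendrocytes (1645 and 5341 CPM). In the pial class the mural marker list summed to 6840 and 5406 CPM, with 8 and 6 of its 10 genes detected, against 174 and 277 CPM in dural border cells with 7 and 6 detected. Vtn alone gave 6707 and 5336 CPM of that sum in pial cells, where Rgs5 was at 12.1 and 13.2 CPM and Abcc9 at 0, against 4195 and 1970 CPM of Rgs5 in mural-like cells.

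Transmembrane collagens sit in the plasma membrane with a triple-helical domain outside the cell that can be shed, and they are known from cell adhesion, from nerve-muscle contacts and, for the product of COL25A1 in humans, from amyloid plaques. FACIT collagens lie on the surface of collagen fibrils and link them to other matrix. Network collagens assemble into sheets or beaded filaments: type VIII is known from Descemet's membrane and blood vessels, and type VI from the microfilaments around cells, whose units combine the chains encoded by Col6a1, Col6a2 and Col6a3. In the meninges, fibroblasts of the pia, arachnoid and dural border are the known makers of most collagens.

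The promoter strings of 4 members are shown as examples of opposite layer patterns. Col13a1 and Col6a3 were higher in pial than in dural border cells, and Col25a1 and Col23a1 were higher in dural border cells and F05. Col8a1, Col12a1, Col6a1 and Col6a2 differed more between the dural border and the other layers than Col23a1 did. Each string is the 250 bases upstream of the RefSeq start in GRCm38.p6, written 5′ to 3′ on the gene's strand. Capitals mark a match on either strand to one of 5 strings: the TATA box (TATAAA), the CCAAT box (its own name), the GC box (GGGCGG), the forkhead core (GTAAACA) and the Zic core (CAGCAGG). Col13a1 lies on the minus strand (chr10:61979109-61979358), Col6a3 on the minus strand (chr1:90843972-90844221), Col25a1 on the plus strand (chr3:130180595-130180844) and Col23a1 on the plus strand (chr11:51289670-51289919).
Col13a1: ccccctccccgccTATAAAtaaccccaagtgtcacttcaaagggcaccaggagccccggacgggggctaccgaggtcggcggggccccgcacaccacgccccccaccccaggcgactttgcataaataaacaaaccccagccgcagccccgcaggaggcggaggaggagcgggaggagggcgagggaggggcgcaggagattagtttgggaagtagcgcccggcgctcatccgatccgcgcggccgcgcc
Col6a3: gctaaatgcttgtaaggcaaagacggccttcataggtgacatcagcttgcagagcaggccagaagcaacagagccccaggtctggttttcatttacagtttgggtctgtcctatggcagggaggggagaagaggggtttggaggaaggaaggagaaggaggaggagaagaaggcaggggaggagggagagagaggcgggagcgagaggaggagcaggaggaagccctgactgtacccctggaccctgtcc
Col25a1: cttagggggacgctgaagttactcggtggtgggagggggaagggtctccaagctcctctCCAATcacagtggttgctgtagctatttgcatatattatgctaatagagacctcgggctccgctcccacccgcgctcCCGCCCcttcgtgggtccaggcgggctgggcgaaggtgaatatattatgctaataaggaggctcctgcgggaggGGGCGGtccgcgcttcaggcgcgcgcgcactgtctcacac
Col23a1: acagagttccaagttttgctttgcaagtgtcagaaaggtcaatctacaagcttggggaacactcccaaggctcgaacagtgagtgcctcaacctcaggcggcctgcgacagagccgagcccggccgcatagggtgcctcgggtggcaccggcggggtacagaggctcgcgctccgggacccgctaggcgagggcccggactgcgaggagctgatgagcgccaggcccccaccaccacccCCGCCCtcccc

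Of the 5 strings, only the GC box was in the windows of both Col25a1 and Col23a1 and of neither Col13a1 nor Col6a3. The window of Col6a1, another member higher in the dural border, held no GC box. The GC box is common and 4 windows are few, so nothing is read from this split. The Col13a1 window held 1 TATA box, at position -237 from the start, a string found in 12.4% of 32841 RefSeq mouse promoter windows of this length. The Col25a1 window held 1 CCAAT box, at position -191, and 2 GC boxes, strings found in 33.9% and 32.8% of windows. The Col23a1 window held 1 GC box, at position -11, and the Col6a3 window held none of the 5 strings. The forkhead core (3.17% of windows) and the Zic core (8.44%) were in none of the 4. Their GC content was 68.8% for Col13a1, 57.2% for Col6a3, 60.4% for Col25a1 and 66.0% for Col23a1, against a median of 52.4% over all windows. RefSeq windows were found for 8 of the 10 members. The window of Col25a1 lies inside the longer span that the GENCODE annotation of the same build gives the gene.

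Col25a1 was a gene of the outer layers. It had 803 CPM in R1 and 1073 CPM in R2 in F05, with exact 95% Poisson intervals of 700.0 to 917 and 870.0 to 1311 CPM, which cover counting error only. Dural border-like cells had 567 and 665 CPM (523 to 612 and 602 to 733 CPM), and the arachnoid barrier was at 483 and 642 CPM. The values of F05 lay above those of the dural border in both libraries, and those of the dural border and arachnoid barrier overlapped. Pial cells had 34.0 and 30.7 CPM and inner arachnoid cells 8.61 and 44.7 CPM from 2 and 9 UMIs, so both inner layers lay far below the outer ones. Neuron-like cells had 163 and 222 CPM, in a class whose fibroblast markers also summed to 5181 and 7315 CPM, and the part of those transcripts in the collagen values was not tested. Endothelial, macrophage, microglial, lymphoid, erythroid and dendritic classes and cluster C04 lay between 0 and 28.0 CPM. Dural border-like cells held 15.2% and 10.1% of all UMIs of the kept cells and 61.6% and 56.6% of those of Col25a1. The gene spans chr3:130131501-130599877 on the plus strand, where 5 predicted genes overlap it on the same strand.

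Thinned to 1000 UMIs per cell, 39.8% of 422 dural border-like cells of R1 and 42.8% of 236 of R2 had a Col25a1 UMI, against 1.58% and 0.713% of border macrophage-like cells, which should lack the gene. Without thinning, 57.6% and 59.0% of dural border-like cells had one, at median depths of 2120.5 and 2031 UMIs, against median depths of 1445 and 1203 UMIs in the macrophages. In F05 the thinned share was 58.3% and 54.5%. The share in dural border cells therefore stood well above that in macrophages at equal depth.

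Col23a1, whose product binds an integrin on keratinocytes, was also highest in F05, at 788 and 872 CPM. The arachnoid barrier class was at 333 and 665 CPM and the dural border at 528 and 468 CPM, values that overlapped between the classes. Pial cells, with 146 and 154 CPM, and inner arachnoid cells, with 60.3 and 154 CPM, were lower, yet the gap between outer and inner layers was smaller than for Col25a1. C10 had 361 and 449 CPM, neuron-like cells 106 and 193 CPM, and the endothelial, immune, erythroid and C04 classes had 14.2 to 56.0 CPM. Thinned to equal depth, 38.9% and 35.2% of dural border-like cells had a Col23a1 UMI, against 3.68% and 5.46% of macrophages. It spans chr11:51289920-51583918 on the plus strand, with no overlapping gene.

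Col13a1, best known from focal adhesions and the neuromuscular junction, ran the other way. Pial and perivascular cells had 197 CPM in R1 (81 UMIs) and 211 CPM in R2 (48 UMIs), with intervals of 156 to 245 and 155 to 279 CPM. Inner arachnoid cells had 103 and 119 CPM. The dural border was at 2.67 and 8.21 CPM from 3 and 5 UMIs (0.551 to 7.81 and 2.67 to 19.2 CPM), so the inner layers were high and the dural border was near the level of macrophages, which had 7.86 and 3.91 CPM. F05 had no Col13a1 UMI, which allows up to 10.998 and 33.5 CPM. Mural-like cells had 0 UMIs in R1 and 9 UMIs (157 CPM) in R2, so the libraries differed there. Neuron-like cells had 56.9 and 99.5 CPM (7 and 17 UMIs), and arachnoid barrier-like cells 16.7 and 44.3 CPM (1 and 2 UMIs). Of pial cells thinned to 1000 UMIs, 16.6% and 22.4% had a Col13a1 UMI, against 0.526% and 0.238% of macrophages. In dural border-like cells the share was 0.237% and 0.847%, below that of macrophages in R1 and above it in R2. Pial cells held 5.56% and 3.78% of all UMIs and 55.5% and 35.6% of those of Col13a1. The gene lies at chr10:61838236-61979108 on the minus strand, where Gm5750 overlaps it on the plus strand.

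Col12a1, whose product coats fibrils in tissues under tension, peaked in dural border-like cells at 459 and 474 CPM, above F05 at 253 and 347 CPM in both libraries. The arachnoid barrier was at 283 and 244 CPM, within the range of F05. Pial cells had 60.7 and 61.5 CPM and inner arachnoid cells 30.1 and 74.5 CPM, and the pair of inner layers overlapped. The neuron-like class was at 89.5 and 193 CPM, and the endothelial, immune, erythroid and C04 classes had 4.94 to 48.4 CPM. At equal depth 33.2% and 30.1% of dural border-like cells had a Col12a1 UMI, against 3.16% and 2.38% of macrophages. The locus is chr9:79598991-79718831 on the minus strand.

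Col14a1, the FACIT collagen closest in structure to Col12a1's product, was scarce, with 64 UMIs in each library over all cells. Dural border-like cells held 36 and 26 of them, or 32.1 and 42.7 CPM. The inner arachnoid class had none, which allows up to 12.9 and 14.9 CPM, and pial cells had 3 and 2 UMIs (7.28 and 8.78 CPM). Neuron-like cells had 16.3 and 29.3 CPM (2 and 5 UMIs) and C10 5.39 and 32.0 CPM (2 and 20 UMIs). Monocyte or dendritic-like cells had 20.4 and 13.2 CPM and endothelial-like cells 13.9 and 10.2 CPM, and the dural border was above all of these classes in both libraries. At equal depth 1.90% and 2.54% of dural border-like cells had a Col14a1 UMI, against none of the macrophages. In these cells UMIs of Col12a1 outnumbered those of Col14a1 by 14.3 to 1 in R1 (10.2 to 20.7) and 11.1 to 1 in R2 (7.43 to 17.3), with exact 95% intervals. That ratio is of UMIs, not of molecules corrected for length. Its locus is chr15:55307750-55520803 on the plus strand.

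Col16a1, a FACIT collagen known from skin and cartilage, was the most even member. Dural border-like cells had 114 and 96.9 CPM, F05 121 and 67.1 CPM, and pial cells 89.8 and 83.4 CPM. The dural border and F05 overlapped, while the dural border stood above pial cells by a small step in both libraries. Inner arachnoid cells had 43.1 and 29.8 CPM, below those classes in both libraries. The neuron-like class was at 97.6 and 87.8 CPM, and the endothelial, immune, erythroid and C04 classes had 0 to 17.8 CPM. Col16a1 spans chr4:130047840-130099283 on the plus strand.

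Col8a1, one of the type VIII chains, had 312 and 279.5 CPM in F05 and 234 and 210.1 CPM in dural border-like cells, each class apart from the next in the order. The arachnoid barrier had 49.95 and 66.5 CPM, pial cells 24.3 and 48.3 CPM, and inner arachnoid cells 8.61 and 9.93 CPM. Mural-like cells had 98.0 and 87.2 CPM from 5 UMIs in each library. Among endothelial-like cells the arterial-led cluster C13 had 102 and 174 CPM, against 14.6 and 23.7 CPM in the cluster C06, so Col8a1 differed within the endothelium in both libraries. Immune, erythroid and C04 classes had 0 to 22.6 CPM, and the neuron-like class 56.9 and 81.9 CPM. Col8a1 spans chr16:57624258-57754737 on the minus strand.

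Col6a1 and Col6a2, both type VI chains, shared a pattern led by the dural border. Col6a1 had 817 and 927 CPM in dural border-like cells, 711 and 626 CPM in F05, 404 and 510.1 CPM in C10, 272 and 378 CPM in pial cells and 183 and 332 CPM in arachnoid barrier-like cells. Inner arachnoid cells had 68.9 and 119 CPM of Col6a1, the lowest of the named fibroblast-like layers in both libraries. Col6a2 had 624 and 576 CPM in dural border-like cells, 455 and 514 CPM in F05 and 214 and 180.1 CPM in pial cells, against 25.8 and 69.5 CPM in inner arachnoid cells. The order dural border, F05, pial, inner arachnoid was the same for both chains. The neuron-like class had 179 and 310 CPM of Col6a1 and 203 and 281 CPM of Col6a2. Endothelial, immune, erythroid and C04 classes had 10.3 to 61.1 CPM of Col6a1 and 0 to 63.7 CPM of Col6a2. At equal depth 53.1% and 57.2% of dural border-like cells had a Col6a1 UMI, against 4.21% and 4.75% of macrophages, and 42.9% and 37.7% had one of Col6a2, against 4.21% and 3.09%. The genes lie on the minus strand of chromosome 10, at chr10:76708792-76726168 and chr10:76595762-76623630, with 85161 bases between them.

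Col6a3, the third chain of the common type VI unit, did not follow the other chains. The arachnoid barrier class had 266 CPM in R1 (16 UMIs, interval 152 to 433) and 133 CPM in R2 (6 UMIs, 48.8 to 289). Pial cells had 109 and 132 CPM, against 39.2 and 19.7 CPM in dural border-like cells (44 and 12 UMIs, 28.5 to 52.6 and 10.2 to 34.4 CPM) and 38.8 and 44.7 CPM in inner arachnoid cells. The dural border, highest for Col6a1 and Col6a2, was therefore below the pial cells for Col6a3 in both libraries. Endothelial, immune, erythroid and C04 classes had 0 to 13.8 CPM, and the neuron-like class 24.4 and 81.9 CPM. At equal depth 10.2% and 10.5% of pial cells and 23.1% and 26.3% of arachnoid barrier-like cells had a Col6a3 UMI, against 1.05% and 1.19% of macrophages. The gene lies at chr1:90765923-90843971 on the minus strand, where Gm36970 overlaps it on the same strand.

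**Figure D1:**
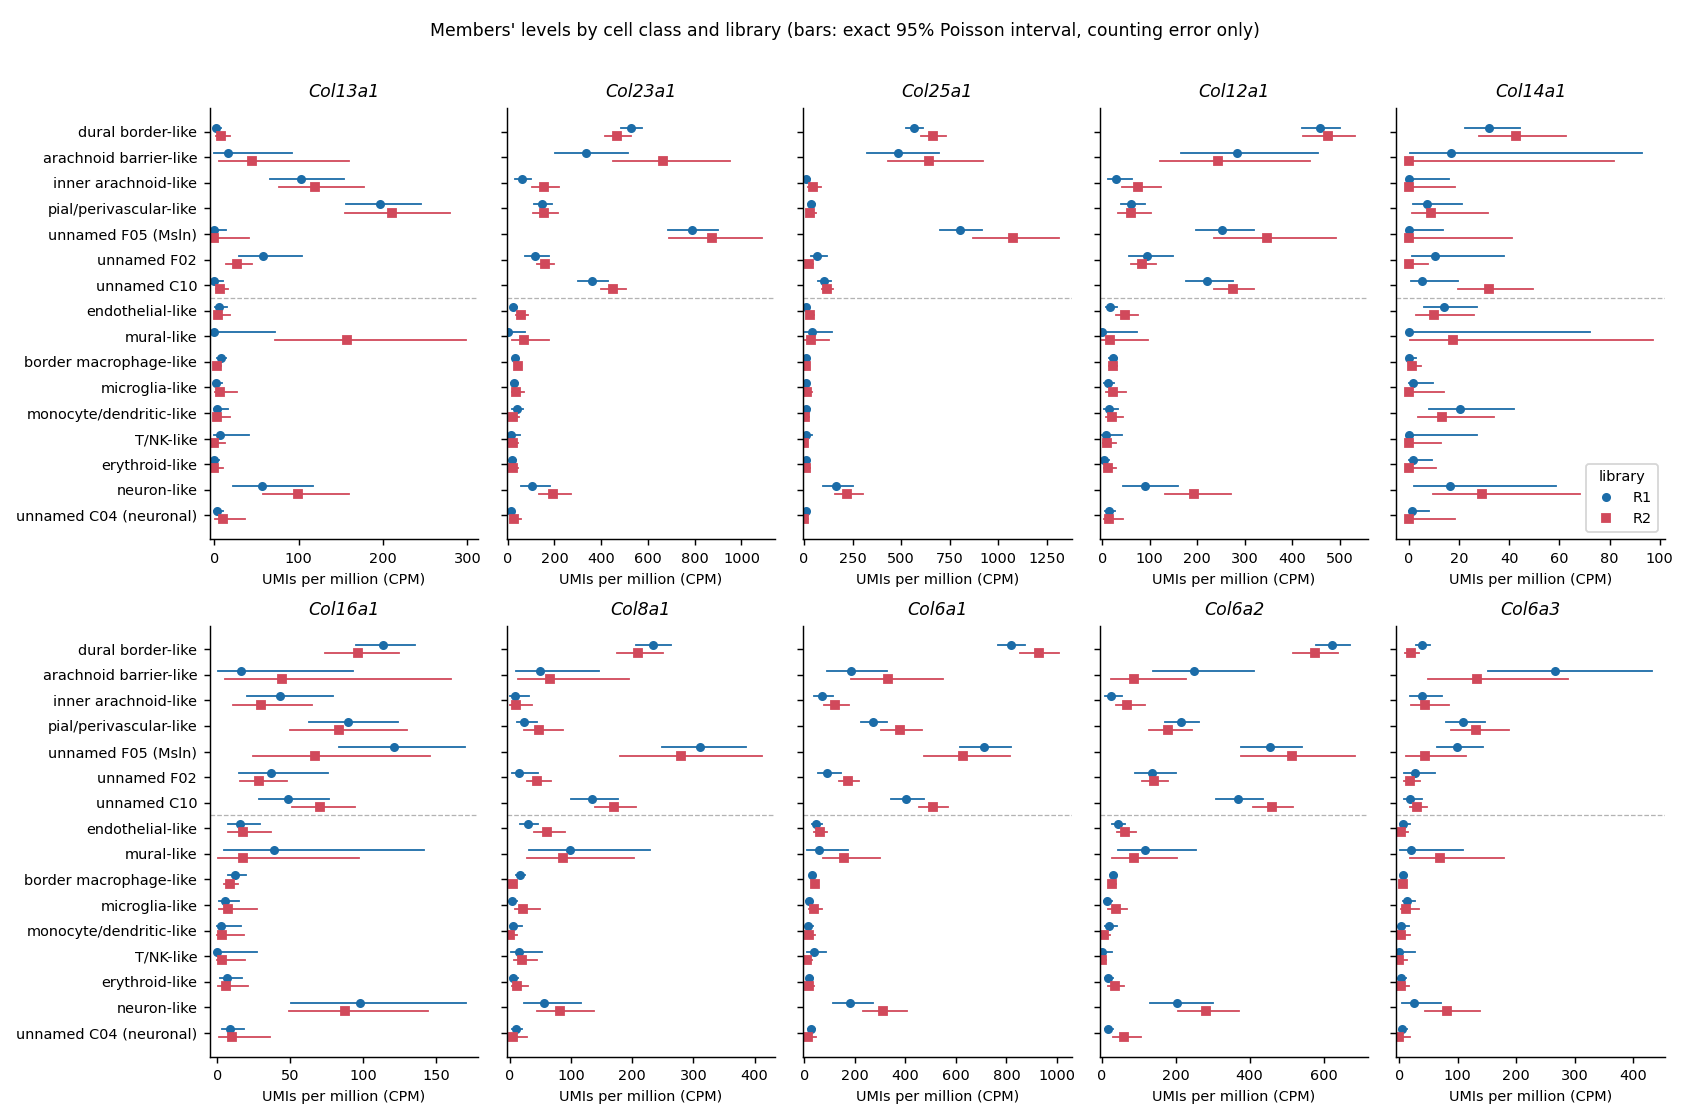
Levels of the 10 members in CPM (horizontal axis of each panel) in the 16 cell classes (vertical axis), with 1 point per library and bars for exact 95% Poisson intervals. Col25a1 reached 803 and 1073 CPM in F05 and 567 and 665 CPM in dural border-like cells, while Col13a1 was highest in pial cells at 197 and 211 CPM.

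The ratio of type VI chains within a class, which is free of the class's depth, showed the same split. Col6a3 UMIs per Col6a1 UMI were 0.402 in R1 (0.278 to 0.573) and 0.349 in R2 (0.222 to 0.534) in pial cells, against 0.0480 (0.0346 to 0.0649) and 0.0212 (0.0109 to 0.0374) in dural border-like cells. The intervals of these classes did not overlap in either library. In arachnoid barrier-like cells of R1 the ratio was 1.45 (0.634 to 3.47). Col6a2 UMIs per Col6a1 UMI varied less, at 0.786 and 0.477 in pial cells, 0.639 and 0.821 in F05, 0.913 and 0.903 in C10 and 0.763 and 0.621 in dural border-like cells. Col25a1 UMIs per Col6a1 UMI were 2.64 and 1.93 in arachnoid barrier-like cells and 1.13 and 1.71 in F05, against 0.694 and 0.717 in dural border-like cells and 0.253 and 0.229 in C10. C10 thus had less Col25a1 per Col6a1 than the dural border in both libraries.

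**Figure D2:**
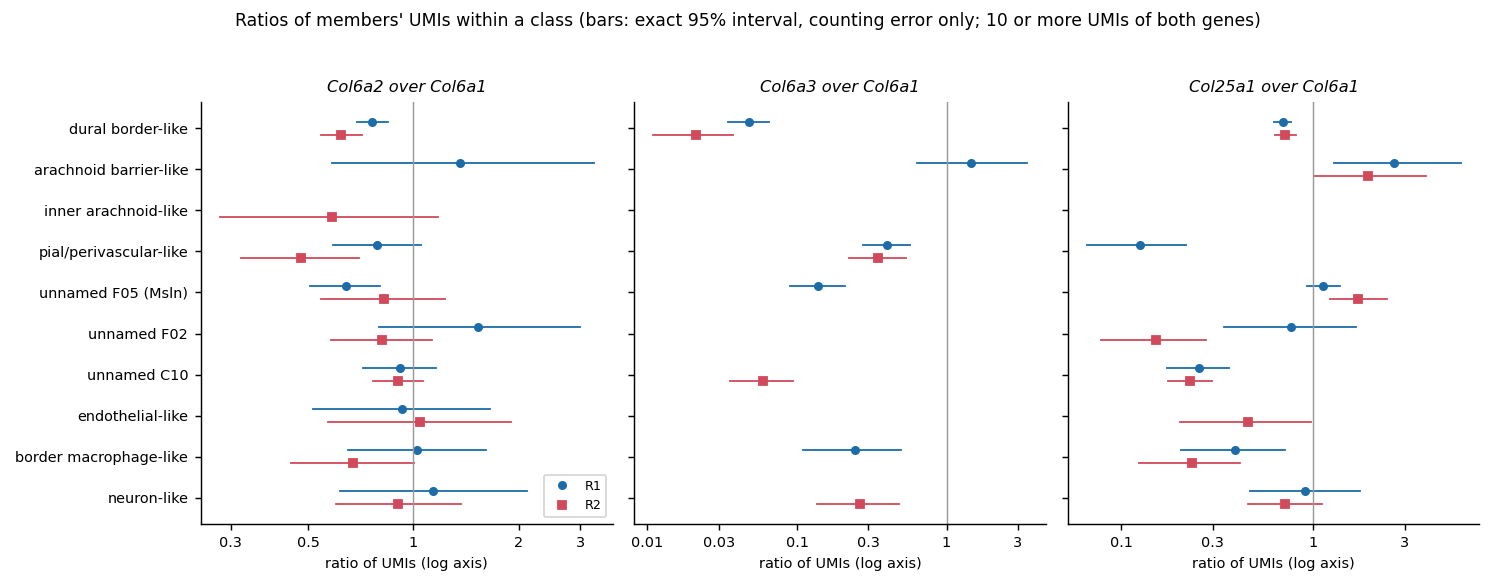
Ratios of UMIs within a cell class (log axis) for Col6a2 over Col6a1, Col6a3 over Col6a1 and Col25a1 over Col6a1, 1 point per library with exact 95% intervals, drawn where both genes had at least 10 UMIs. Col6a3 over Col6a1 was 0.402 and 0.349 in pial cells, against 0.0480 and 0.0212 in dural border-like cells.

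To ask how the layers differed, UMIs were summed per library and class, and each of the dural border, inner arachnoid and pial classes was set against the mean of the other classes on a log2 scale, each class counting equally. Arachnoid barrier-like cells, with under 50 cells a library, were not in that fit. Dural border-like cells were higher in Col25a1 by a log2 difference of +4.11 ± 0.23 (SE of the fit to 2 libraries), at 567 and 665 CPM against a mean of 21.3 and 37.7 CPM in the other layers. This SE, here and below, comes from the fitted model, which shares error across genes. It is not the spread between R1 and R2, which can be wider or narrower. The difference in Col8a1 was +3.38 ± 0.29, in Col12a1 +2.78 ± 0.21, in Col6a2 +2.36 ± 0.20, in Col6a1 +2.07 ± 0.17 and in Col23a1 +1.73 ± 0.19. Col13a1 was lower by -5.19 ± 0.35, at 2.67 and 8.21 CPM against 150.0 and 165 CPM, and Col6a3 by -1.43 ± 0.31, at 39.2 and 19.7 CPM against 74.0 and 88.2 CPM. Col16a1 differed by +0.63 ± 0.24 and was the smallest of these differences. Each of these signs was the same in R1 and R2 alone. The single-library values were computed from log CPM with a prior count of 2, which draws low counts together, so the fitted value of Col13a1, -5.19, lies outside -4.63 in R1 and -3.94 in R2. The dural border was thus the pole of most members, and Col13a1 and Col6a3 were the exceptions.

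Inner arachnoid cells were low in most members. Their log2 difference was -2.89 ± 0.56 in Col8a1, -2.59 ± 0.30 in Col6a2, -2.21 ± 0.24 in Col6a1 and -2.19 ± 0.43 in Col25a1, with Col12a1 at -1.43 ± 0.33, Col23a1 at -1.09 ± 0.27 and Col16a1 at -1.06 ± 0.35 (-0.44 ± 0.49 with classes of at least 20 cells). Col25a1 varied most between libraries, at -3.27 in R1 and -1.40 in R2. Col13a1 was higher by +2.10 ± 0.33. For Col13a1 the mean CPM of inner arachnoid cells, 103 and 119 CPM, was close to the mean of the other layers, 99.7 and 109 CPM, since pial cells lay above and dural border-like cells far below, and the fit averages logs. Col6a3 differed by -0.24 ± 0.39, less than its error.

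Pial and perivascular cells were higher in Col13a1 by +3.09 ± 0.27 and in Col6a3 by +1.67 ± 0.29, and lower in Col25a1 by -1.92 ± 0.42 and in Col12a1 by -1.35 ± 0.31. Col6a1, Col6a2, Col8a1, Col16a1 and Col23a1 differed by between -0.64 ± 0.24 (Col23a1) and +0.43 ± 0.28 (Col16a1). Because the fit averages logs, the near-zero differences of Col6a1 and Col6a2 place pial cells between the dural border and the inner arachnoid, not level with both. With the barcodes shared between libraries put back, mean Col25a1 in pial cells was 77.3 CPM, against 32.4 CPM without them, and the log2 difference was -0.59. At a higher cluster resolution that mean was 70.7 CPM, and at no more than 5% mitochondrial UMIs it was 9.36 CPM, so the pial level of Col25a1 depends on these choices.

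**Figure D3:**
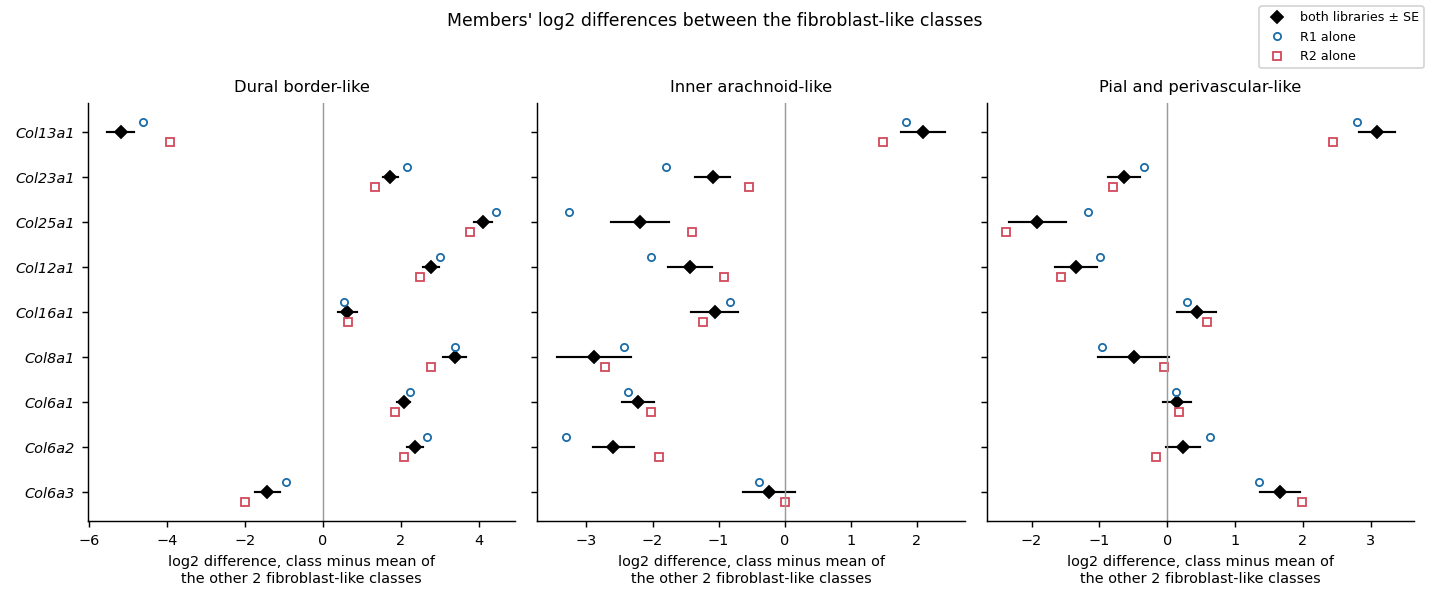
Log2 difference of each named fibroblast-like layer against the mean of the other layers (horizontal axis) for 9 members (Col14a1, at 0 in inner arachnoid cells, is not drawn), with the estimate ± SE and 1 small point per library. In dural border-like cells Col25a1 lies at +4.11 and Col13a1 at -5.19, and in pial cells Col13a1 lies at +3.09.

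Counting members by the same call (edgeR, adjusted p under 0.05), 7 of 10 were higher and 2 lower in the dural border, where 27.0% of all 6702 genes tested were called (14.7% higher and 12.3% lower). In the inner arachnoid 1 was higher and 7 lower, where 12.5% were called (6.82% higher and 5.70% lower), and in pial cells 2 were higher and 2 lower, where 14.7% were called (8.83% higher and 5.91% lower). The higher count in the dural border includes Col14a1, whose fitted value depends on a class at 0. Median log2 differences without Col14a1 were 2.07 in the dural border, -1.43 in the inner arachnoid and 0.15 in pial cells, against medians of all genes of 0.00, 0.01 and 0.00. Nothing is read from these counts, since the members were chosen on such contrasts.

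Set against the mean of the endothelial, macrophage and microglial classes, the mean of the fibroblast-like layers was higher in most members. This did not hold for each layer. Col8a1 was 29.5 and 61.1 CPM in endothelial-like cells, above pial and inner arachnoid cells in each library and below the dural border. Inner arachnoid values overlapped endothelial ones for Col25a1 (8.61 and 44.7 against 10.4 and 28.0 CPM) and Col6a2 (25.8 and 69.5 against 43.4 and 63.7 CPM). The log2 difference was +3.13 ± 0.41 for Col13a1, +2.36 ± 0.18 for Col23a1 and +2.50 ± 0.31 for Col25a1 among the transmembrane collagens. Among the FACIT collagens Col12a1 was at +2.22 ± 0.23 and Col16a1 at +2.64 ± 0.29. Among the network collagens Col6a1 was at +2.89 ± 0.17, Col6a3 at +2.65 ± 0.30, Col6a2 at +2.32 ± 0.22 and Col8a1 at +1.16 ± 0.41. Col14a1, at 13.1 and 17.2 CPM against 5.20 and 3.83 CPM, had a difference of +0.49 with an SE of 2.80. With classes of at least 20 cells Col8a1 was at +0.71 ± 0.35. Thus 9 of 10 members were called higher and 0 lower, where 59.1% of 10055 genes were called (28.2% higher and 30.9% lower), and nothing is read from that count.

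As bounded above, arachnoid barrier-like cells could be fitted only when classes of at least 20 cells entered, a setting chosen after the data were seen. In that fit Col25a1 was at +2.50 ± 0.31, Col6a3 at +1.67 ± 0.41 and Col23a1 at +0.99 ± 0.28 against the other layers. Clustering again, at no more than 5% mitochondrial UMIs or at a higher resolution, gave a class of that name with at least 50 cells. It was fitted under both of those settings. At a higher cluster resolution this class took in F05-like cells, and its mean Col25a1 was then 991 CPM, against 563 CPM in the class described above. Mean Col8a1 was then 254 CPM against 58.2 CPM, Col6a1 606 CPM against 258 CPM, Col6a2 404 CPM against 169 CPM, Col16a1 93.1 CPM against 30.5 CPM and Col13a1 8.96 CPM against 30.5 CPM. The arachnoid barrier levels of these members, wherever given, depend on how the class is bounded.

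Dural border-like cells fell into a pair of clusters, F00 and F01, and the members split between them. F00, with a median of 1518.5 and 1706 UMIs per cell, against 3241.5 and 3577 in F01, was the shallower. It had 734 and 896 CPM of Col25a1, against 457 and 329.7 CPM in F01, and Col23a1 was 646 and 529.8 CPM in F00, against 451 and 378 CPM in F01. Col12a1 ran the other way, at 361 and 405 CPM in F00 and 522 and 575 CPM in F01. Within single dural border-like cells of at least 1000 UMIs, thinned, Col23a1 and Col25a1 were detected together in 73 cells of R1 and 36 of R2, where the product of their shares gives 65.3 and 35.5. Col25a1 and Col12a1 were found together in 49 and 29 cells, where it gives 55.7 and 30.4. Counts of joint detection were thus close to those of the product, and no exclusion of members at the level of single cells was visible at this depth.

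In border macrophages and microglia the low levels of some members moved with Malat1, a nuclear RNA whose share of UMIs is low in barcodes without a nucleus. Macrophage cluster C05, of low Malat1 and a median of 1155 and 998.5 UMIs, had 63.0 and 88.9 CPM of Col23a1, against 8.41 and 14.8 CPM in C02, of high Malat1 and a median of 5448 and 5264 UMIs. Col6a2 was 61.2 and 49.9 CPM in C05, against 8.41 and 12.5 CPM in C02, and Col25a1 was 21.6 and 17.2 CPM in C05, against 4.81 and 4.55 CPM in C02. C09 had 62.1 and 97.1 CPM of Col23a1, against 11.9 and 15.5 CPM in C11. In the Malat1-poor barcodes of C09, Col13a1 and Col25a1 had 1 UMI each per library, and Col14a1 had none there or in those of C05. UMIs of Col23a1 in both classes, and of Col6a2 and Col25a1 in macrophages, thus came at a higher rate in the Malat1-poor clusters in both libraries. The part of free RNA in them was not tested.

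**Figure D4:**
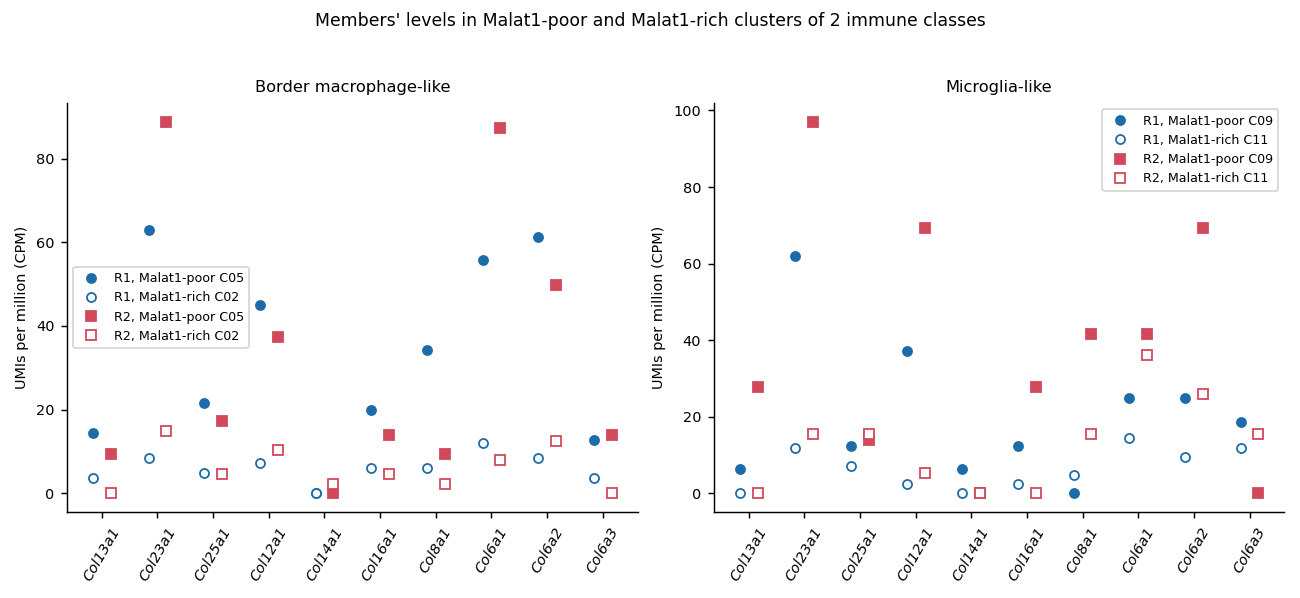
Member levels in CPM in the Malat1-poor clusters C05 and C09 beside the Malat1-rich clusters C02 and C11 of the same immune classes, 1 point per library. Col23a1 was 63.0 and 88.9 CPM in C05, against 8.41 and 14.8 CPM in C02.

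Other collagen genes, which left the clustering aside like the members, were tested in the same fits. Of all genes tested, 27.0% were called in the dural border, 12.5% in the inner arachnoid and 14.7% in pial cells. Against other classes 59.1% were called (28.2% higher and 30.9% lower). The counts of this list and of the lists below stand beside these shares. Classes were formed from the same cells, so the adjusted p-values below describe these classes. With library as a block, they rest on how far the differences between classes varied between the 2 libraries, an error that the fit shares across genes. Against the other layers, dural border-like cells were higher in 2 and lower in 8 of 16 tested collagens, with a median log2 difference of -1.04. Col8a2, the partner chain of Col8a1, was higher by +2.92 ± 0.24, at 258 and 289 CPM against 20.8 and 40.2 CPM (edgeR quasi-likelihood, adjusted p = 1.2e-12). Col11a1, a fibril-forming chain, was higher by +2.12 ± 0.29 (adjusted p = 2.11e-07). Col9a2, a FACIT chain known from cartilage, was lower by -4.83 ± 0.32 (adjusted p = 1.77e-15) and Col4a5, a basement membrane chain, by -4.49 ± 0.35 (adjusted p = 2.81e-13). Pial cells were higher in 10 and lower in 1 of 16 (median 1.22), with Col15a1, a basement membrane-zone collagen, at +4.82 ± 0.55 (adjusted p = 7.07e-09), Col4a6 at +4.40 ± 0.32 and Col8a2 at -1.81 ± 0.40. Inner arachnoid cells were higher in 4 and lower in 5 of 16 (median -0.73), with Col5a1, which helps start fibrils, at +3.03 ± 0.25 (adjusted p = 3.85e-12) and Col18a1, the source of endostatin, at +2.18 ± 0.39, and with Col4a1 at -1.78 ± 0.39 and Col3a1 at -1.52 ± 0.25. Against other classes, 16 of 18 collagens were higher in the fibroblast-like layers and 0 lower (median 2.76), led by Col5a1 at +4.37 ± 0.32 and Col26a1 at +4.23 ± 0.44.

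Among 18 tested genes that fold and modify collagen, 2 were higher and 1 lower in the dural border (median 0.24), 0 were higher and 2 lower in the inner arachnoid (median -0.41), and 3 were higher and 0 lower in pial cells (median 0.31). Of all genes, 27.0%, 12.5% and 14.7% were called in these comparisons, so the list's shares lay near or below the background. With DESeq2 these counts were 0 and 0, 0 and 1, and 1 and 0, and at an unadjusted p under 0.05 with edgeR 4 and 1, 0 and 4, and 6 and 0. Serpinh1, the collagen chaperone HSP47, was +0.53 ± 0.16 in the dural border (adjusted p = 0.0108), -1.47 ± 0.21 in the inner arachnoid (adjusted p = 1.07e-06) and +0.94 ± 0.17 in pial cells (adjusted p = 4.78e-05). Mia3, which loads collagen for export, was higher in pial cells by +0.67 ± 0.21 (adjusted p = 0.0202). P4ha1, a prolyl hydroxylase subunit, was +0.58 ± 0.20 in the dural border (adjusted p = 0.0309) and P4hb, its partner, -0.72 ± 0.24 in the inner arachnoid (adjusted p = 0.0462), and each of those calls was lost under 5 of the alternatives. Against other classes 10 of 21 were higher and 5 lower (median 0.37), where 59.1% of all genes were called (28.2% higher and 30.9% lower). Fkbp10 was at +2.88 ± 0.25 and P4ha2 at +2.36 ± 0.28. Plod3 and Colgalt1, which add hydroxyl groups or sugars to lysines of collagen, were at -1.13 ± 0.21 and -0.52 ± 0.16.

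Genes that trim and cross-link collagen were higher in the dural border in 5 and lower in 1 of 8 (median 1.32). Pcsk5, a proprotein convertase, was at +2.23 ± 0.23 (adjusted p = 4.47e-10) and Adamts2, the procollagen N-proteinase, at +1.41 ± 0.18 (adjusted p = 7.18e-08), while Pcolce, which enhances C-terminal trimming, was at -1.19 ± 0.17. In pial cells 1 was higher and 3 lower (median 0.08), with Pcolce at +0.71 ± 0.16, Adamts2 at -1.23 ± 0.24 and Bmp1, the C-proteinase, at -1.21 ± 0.26, a call lost under 4 alternatives. None of the 8 passed in the inner arachnoid with edgeR or with DESeq2, where 1 was higher and 3 lower at an unadjusted p under 0.05. Against other classes 7 of 10 were higher and 0 lower (median 2.49), with Pcolce at +3.34 ± 0.13 and Bmp1 at +3.30 ± 0.23.

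Collagen receptors were higher in the dural border in 8 and lower in 1 of 12 (median 0.90), and with DESeq2 in 3 and 1. Antxr1, a receptor for type VI collagen fragments, was at +1.41 ± 0.24 (adjusted p = 1.3e-05) and Ptprf at +2.03 ± 0.33, while Itga1, an integrin chain for basement membrane collagens, was lower by -3.93 ± 0.29, at 10.7 and 19.7 CPM against 188 and 172 CPM. In pial cells 2 were higher and 2 lower (median -0.07), with Itga1 at +2.30 ± 0.24 and Antxr2, an internalising receptor for type VI collagen, at +2.31 ± 0.48, and with Ptprf at -3.64 ± 0.51 and Ptprd at -1.11 ± 0.33. In the inner arachnoid 2 were higher and 4 lower (median -0.20), with Itga1 at +1.63 ± 0.29, Ptprf at +1.61 ± 0.44, a call lost under 5 alternatives, Antxr1 at -1.29 ± 0.38 and Mrc2, a collagen uptake receptor, at -0.92 ± 0.19. Against other classes 12 of 14 were higher and 1 lower (median 2.14), with Ddr1 at +2.96 ± 0.28 and Itga10 at +2.90 ± 0.33, and with the immune receptor Lair1 at -5.63 ± 0.83.

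Of 7 tested matrix partners of FACIT and type VI collagens, 3 were higher and 3 lower in the dural border (median -1.42; 1 and 3 with DESeq2), with Fn1, fibronectin, at +1.93 ± 0.16 (adjusted p = 5.99e-13) and Nid1 at +0.77 ± 0.24, and with the small proteoglycans Fmod at -4.06 ± 0.20 (adjusted p = 6.84e-19) and Lum at -3.36 ± 0.48. In pial cells 6 were higher and 1 lower (median 1.91), with Lum at +4.68 ± 0.25, Tnxb, which binds fibrils together with FACIT collagens, at +4.05 ± 0.34, and Fn1 at -1.70 ± 0.19. In the inner arachnoid 1 was higher and 4 lower (median -1.32), with Fmod at +2.25 ± 0.16, at 1236 and 1063 CPM against 684 and 496 CPM, Nid1 at -2.67 ± 0.33 and Tnxb at -2.63 ± 0.65. All 7 were higher in the fibroblast-like layers than in other classes (median 2.31), with Fmod at +3.11 ± 0.14 and Dcn at +3.11 ± 0.13.

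Of 5 tested genes of collagen breakdown or its inhibition, 2 were higher and 1 lower in the dural border (median 0.47). All of these were genes of metalloproteinase inhibitors, not of proteases. Timp1 was at +2.73 ± 0.26 (edgeR quasi-likelihood, adjusted p = 4.97e-11), Timp2 at +1.06 ± 0.16 and Timp3 at -2.18 ± 0.18 (adjusted p = 7.89e-13). In pial cells 1 was higher and 0 lower (median 0.19), which was Timp3 at +1.97 ± 0.16, at 1930 and 1493 CPM against 494 and 441 CPM. In the inner arachnoid 0 were higher and 2 lower (median -0.71), Timp1 at -1.57 ± 0.46 and Timp2 at -0.85 ± 0.20. Against other classes 5 of 6 were higher and 0 lower (median 2.30), with the collagenolytic protease Ctsk at +3.93 ± 0.33 and Mmp14 at +3.04 ± 0.19. The median log2 difference of all genes was -0.05 in that comparison.

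The genes most like each member other than Col8a1 and Col14a1 were found by Pearson correlation of log2(CPM + 1) over 12 points, the 6 fitted classes in each library, among 7132 genes. Points of the same library share its depth and preparation, so the values are a description. Col25a1 was most like Atp1b1 (r = 0.981), Col12a1 (0.981) and Timp1 (0.977), and Col23a1 was most like Igfbp6 (0.969), Col12a1 (0.965) and Nt5e (0.964). Col13a1 was most like Col9a2 (0.982), Slc6a13 (0.979) and Gprc5b (0.978). Among the FACIT collagens, Col12a1 was most like Col25a1, Col8a2 (0.973) and Igfbp6 (0.968), and Col16a1 like Wls (0.982), Ntrk3 (0.981) and Plpp3 (0.980). Among the network collagens, Col6a1 was most like Nt5e (0.990), Gm14964 (0.986) and Mfap2 (0.981), Col6a2 like Mfap2 (0.982), Col6a1 (0.972) and Cpxm2 (0.971), and Col6a3 like Robo1 (0.936), Slc22a17 (0.933) and Adam12 (0.930). Between members r was 0.784 for Col13a1 and Col6a3, 0.615 for Col6a1 and Col6a3, and -0.07 for Col13a1 and Col25a1.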

How the data were processed

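Raw UMI counts per gene and barcode were deposited by the authors, made with Cell Ranger 4.0.0 against mm10 per the file headers and labels, for at most 5000 loaded cells a sample. The deposited feature and barcode lists (unit: other, per the file headers) name the rows and columns. Of 7276 barcodes in R1 and 6743 in R2, 2988 and 3038 passed limits of 400 genes or more and 10% mitochondrial UMIs or less. Scrublet called 3 in each library (0.100% and 0.0987%), so it did not work here and doublets are likely to remain.

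Cells were clustered (scanpy 1.11.5, Leiden, 2000 variable genes without members or listed genes). UMIs were summed per library and class of at least 50 cells in each library and tested with edgeR 4.0.16 (R 4.3.3; TMM, filterByExpr, glmQLFit, glmQLFTest, library as a block, Benjamini-Hochberg over all genes). Library is the block because all classes of a library came from the same suspension. On simulated data the test recovered 78.3% of 2-fold and 100% of 4-fold changes for fibroblast-like against other classes (8897 genes), and 33.7% and 84.2% for pial against the other layers (6234 genes). CPM is UMIs per 1000000 UMIs of a class in a library, and intervals and floors (3 counts) cover counting error only. Class means rest on n = 2 libraries.

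The members and gene lists were chosen with earlier results of these data known. All members are named, and of each list the text names, per comparison, up to 2 genes higher and 2 lower with the largest change among those past an adjusted p of 0.05, with the same sign in each library and at least 50 CPM on the higher side. The genes most like Col8a1 are not reported here. Alternatives were RLE size factors, DESeq2 1.42.0, no low-count filter, no library block, other cell filters, cluster resolution, count splitting and leaving out each library. Promoter strings are from RefSeq, gene spans from GENCODE, both on GRCm38.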

Additional observations from a re-analysis of the deposited data

Results flagged for a closer look

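Barcodes over the 10% mitochondrial limit, 3631 in R1 and 2905 in R2, were outside every comparison above, and they held UMIs of the members well above the floor that a count of 0 allows. Summed over the 10 members they had 1180 UMIs per 1000000 non-mitochondrial UMIs in R1 and 1586 in R2, against 994.1 and 969.9 in the kept cells. The members did not share this direction. Col23a1 was 228 and 376 on that scale in the barcodes over the limit, against 168 and 173 in the kept cells, and Col6a2 was 270.0 and 337, against 175 and 168. Col25a1 was 86.6 and 73.4 on that scale, against 146 and 124, and so was lower in both libraries. Col13a1 was 10.5 and 24.1 on that scale, against 20.6 and 23.4.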

How the results depend on the processing

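The 457 alternative values of the members' log2 differences changed sign 8 times, each time for a difference smaller than its own SE. With classes of at least 20 cells, 4 calls of members changed. Of the alternative values of named list genes, 709 kept their call and 50 lost it, 13 of these with DESeq2 and 13 with count splitting, and none changed direction. Members' mean levels moved by more than the spread between libraries in 56 alternative values and not in 184, their log2 differences in 141 and not in 316, and their shares of cells in 44 and not in 36. Of the 184, 39 came from leaving out R1 and 39 from leaving out R2. With 2 libraries such a value cannot lie further from the mean than that spread, so these say nothing of stability. Of the 44 shares that moved, 35 were the shares without thinning. With at least 1% Malat1 UMIs, 9 shares moved and 31 did not. Numbers of genes called moved by over 1.5 times as follows. Fibroblast-like against other classes had 5940 calls, 3935 at 5% mitochondrial UMIs and 3839 with classes of at least 20 cells. Pial cells had 988 calls, 461 with DESeq2, 1577 at a higher cluster resolution and 510.0 with count splitting. The inner arachnoid had 839, 319, 2161 and 480.0 calls under the same settings. The dural border had 1810 calls, 851 with DESeq2 and 1111 with count splitting. The causes were not tested. Without the replicate block, the library, the counts were 5800, 874, 719 and 1590. Without the low-count filter the dural border calls were 64.7% higher, against 54.3% with it, and the median of all genes was 0.20, while inner arachnoid calls were 46.9% higher, against 54.5%, with a median of -0.23, and DESeq2 gave pial calls that were 68.5% higher, against 59.9%. At 5% mitochondrial UMIs, where the cells were clustered again, the dural border class fell under 50 cells in R2, so it has no fitted value there. Arachnoid barrier-like cells entered the fits at 5% in its place. The pial and inner arachnoid differences at 5% are therefore against another set of layers. Depth limits Col14a1, with 64 UMIs a library, and the arachnoid barrier and mural classes. Leaving out a library leaves 1 library per class, so those values carry no test.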

Other observations

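Cluster C10, led by the granulocyte enzyme genes Mpo and Elane, carried the outer-layer members at levels below those of the dural border, together with dural border markers (2565 and 2979 CPM, 7 of 7 detected, against 5556 and 5839 CPM in dural border-like cells), while its neutrophil markers summed to 94.3 and 43.2 CPM. Col6a1 was 404 and 510.1 CPM in C10 and Col6a2 369 and 460.5 CPM, against 817 and 927 CPM and 624 and 576 CPM in dural border-like cells. Col23a1 was 361 and 449 CPM, Col12a1 221 and 275 CPM and Col8a1 135 and 171 CPM in C10. Col25a1 was 102 and 117 CPM there, against 567 and 665 CPM in dural border-like cells, and Col13a1 had 0 and 4 UMIs. Its cells were shallow, with a median of 751.5 and 768 UMIs, and 6.98% and 5.80% of them were rich in Malat1. Whether these transcripts belong to the cells of C10 was not tested.

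Cluster F02, shallow as well at a median of 974.5 and 1224 UMIs, held both poles at low levels, with Col13a1 at 58.0 and 26.5 CPM, Col25a1 at 68.5 and 26.5 CPM, Col6a1 at 89.6 and 173 CPM and Col23a1 at 116 and 159 CPM. Its fibroblast markers summed to 8410 and 6931 CPM, and its inner arachnoid markers to 1734 and 1649 CPM with 4 of 4 detected, against 1929 and 1668 CPM in inner arachnoid cells. The mural marker list summed to 1913 and 1704 CPM in F02, with 6 and 8 of 10 genes detected, and the B-cell and plasma list to 242 and 71.4 CPM, with 3 of 7 detected in each library. Their part in these levels was not tested.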
